A study of Mus musculus with 75 samples.

Results

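The axon guidance ligands and receptors described here were 72 protein-coding genes chosen by name: each gene whose symbol in the GENCODE M21 annotation names a semaphorin, plexin, neuropilin, ephrin, Eph receptor, Slit, Robo, netrin, netrin-G or Unc5 receptor, together with Dcc and Neo1. They were 72 of 21897 protein-coding genes and of 55401 gene identifiers in the count table, and all 72 passed the low-count filter of each fit. They comprised 20 semaphorins, 9 plexins, 2 neuropilins, 5 ephrin-A and 3 ephrin-B ligands, 9 EphA and 5 EphB receptors, 3 Slits, 4 Robos, 4 netrins, 2 netrin-Gs, 4 Unc5 receptors, and Dcc with its relative Neo1.

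RNA was sequenced from nuclei sorted by fluorescence out of bilateral punches of the nucleus accumbens, the ventral striatum, of male mice. All mice carried LSL-eGFP::L10a, a green fluorescent ribosomal fusion protein that Cre recombinase switches on, and Cre came from D1-Cre or D2-Cre, so a nucleus counts as D1 or D2 by the activity of that driver. Most medium spiny neurons, the main cells of the striatum, carry mainly one of these dopamine receptors. Mice received saline or cocaine (20 mg/kg, intraperitoneal) for 10 days, spent 30 days in the home cage, and were given a challenge of saline or cocaine 1 h before collection.

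In the group names the letters after the line stand for the repeated injections and then for the challenge (C, cocaine; S, saline). D1_SC had repeated saline and a cocaine challenge (9 libraries), D1_CS repeated cocaine and a saline challenge (8 libraries), D1_CC cocaine at both steps (10 libraries) and D1_SS saline at both (10 libraries). The same treatments in the other line were D2_SC (9 libraries), D2_CS (10 libraries), D2_CC (10 libraries) and D2_SS (9 libraries). Replicates are numbered, but the labels do not say that they came from separate animals, so p-values measure the spread between these libraries, which may be technical.

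Ephrins are membrane-bound ligands of the Eph receptor tyrosine kinases, and the pair signals into both of the cells that touch. Semaphorins act through plexins, with neuropilins as co-receptors of the secreted kinds. Slits bind Robo receptors and mostly repel axons, whereas netrins attract through DCC and repel where Unc5 receptors take part. In the striatum Sema3e and its receptor Plxnd1 are known for shaping the thalamic inputs of direct pathway neurons, which carry the D1 receptor.

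Library totals ran from 19825 to 34870414 counts with a median of 14893119, and 71 of 75 libraries held over 1000000 counts. Olfactory and vomeronasal receptor genes (1738 genes), taken as silent in this tissue, still gave counts. Such counts were assumed to rise in proportion to gene length, which was not tested. This background, the summed count per kilobase of those genes scaled to all gene spans, made up 4.03% to 71.5% of those 71 libraries. Levels below are FPKM over the full gene span, and corrected levels are FPKM after this background was taken off, both over the 71 deeper libraries (36 D1 and 35 D2). The D1_SC libraries had a mean background share of 24.3% ± 19.0 (SD, n = 8), against 46.2% ± 11.9 (SD, n = 10) in D1_SS (exact permutation test, two-sided p = 0.0101, adjusted p = 0.101 over 10 comparisons). Libraries 2, 4 and 9 of D1_SC stood apart with shares of 8.10%, 5.67% and 5.85%. Drd2 exceeded Drd1 in 16 of 37 D1 libraries and in 38 of 38 D2 libraries, and in 5 libraries (5 of D1_SC, 4 of D1_CS, 4 and 9 of D1_CC, 10 of D2_CC) the ratio lay beyond the midpoint between the medians of the lines, on the other line's side. Over the 4 treatments, 5 of 7 D1 neuron markers were higher in D1 than in D2 nuclei and 5 of the 6 tested D2 neuron markers were lower.

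The guidance genes together took 0.685% to 1.30% of a library's counts, with a median of 1.01%. Of the 72, 27 had a median FPKM over 2 times the background of the library and 22 were at 1.5 times or less. The 3 at or below it were Epha1, Plxnb3 and Ntn5. Ntn5 shares 98.5% of its span with Sec1, and as the strand setting of the counting is not given in the sources used here, reads of overlapping genes cannot be told apart. Corrected medians exceeded 1 FPKM for 14 genes, lay between 0.5 and 1 for 22 and between 0.1 and 0.5 for 28, and were under 0.1 for 8.

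Among the ligands, the ephrin-B genes Efnb3 and Efnb2 stood highest. Corrected Efnb3 ranged from 1.70 to 14.8 with a median of 6.87 FPKM in D1 libraries and from 0.878 to 34.0 with a median of 5.28 FPKM in D2 libraries. Efnb2, which like Efnb3 encodes a transmembrane ligand of EphB receptors, had corrected medians of 3.04 FPKM in D1 and 2.53 FPKM in D2 libraries. The remaining ephrin-B gene, Efnb1, was lower, with corrected medians of 0.263 FPKM in D1 and 0.338 FPKM in D2 libraries. Sema6b, a transmembrane semaphorin, was the highest of its family, with corrected medians of 2.96 FPKM in D1 and 1.89 FPKM in D2 libraries. The other 19 semaphorins had corrected medians under 1 FPKM over all libraries, and secreted ones such as Sema3a (0.0757 FPKM), Sema3c (0.0383 FPKM) and Sema3b (0.00330 FPKM) were close to background. Slit3 led the Slits with corrected medians of 1.50 FPKM in D1 and 1.46 FPKM in D2 libraries. Slit2 (0.406 FPKM) and Slit1 (0.362 FPKM) were lower over all libraries. Ntn1, which encodes netrin-1, had corrected medians of 0.505 FPKM in D1 and 0.428 FPKM in D2 libraries.

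Among the receptors, Plxna2, Robo1 and Epha4 stood highest, and each was above background in all 71 libraries. Corrected Plxna2, which encodes a plexin, had medians of 2.36 FPKM in D1 and 2.09 FPKM in D2 libraries. Corrected Robo1, a Slit receptor, ranged from 0.877 to 3.56 with a median of 1.98 FPKM in D1 libraries and from 1.04 to 3.97 with a median of 2.25 FPKM in D2 libraries. Corrected Epha4, an Eph receptor that binds ephrins of both classes, had medians of 1.86 FPKM in D1 and 1.83 FPKM in D2 libraries. The spread of Robo1 over libraries was wider than the gaps between these medians, and the order of these genes within libraries was not tested. Epha7 (1.48 FPKM) and the netrin receptor Dcc (1.45 FPKM) followed over all libraries. The Unc5 receptors had corrected medians of 1.07 FPKM for Unc5a, 0.799 FPKM for Unc5c, 0.585 FPKM for Unc5d and 0.113 FPKM for Unc5b over all libraries.

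**Figure D1:**
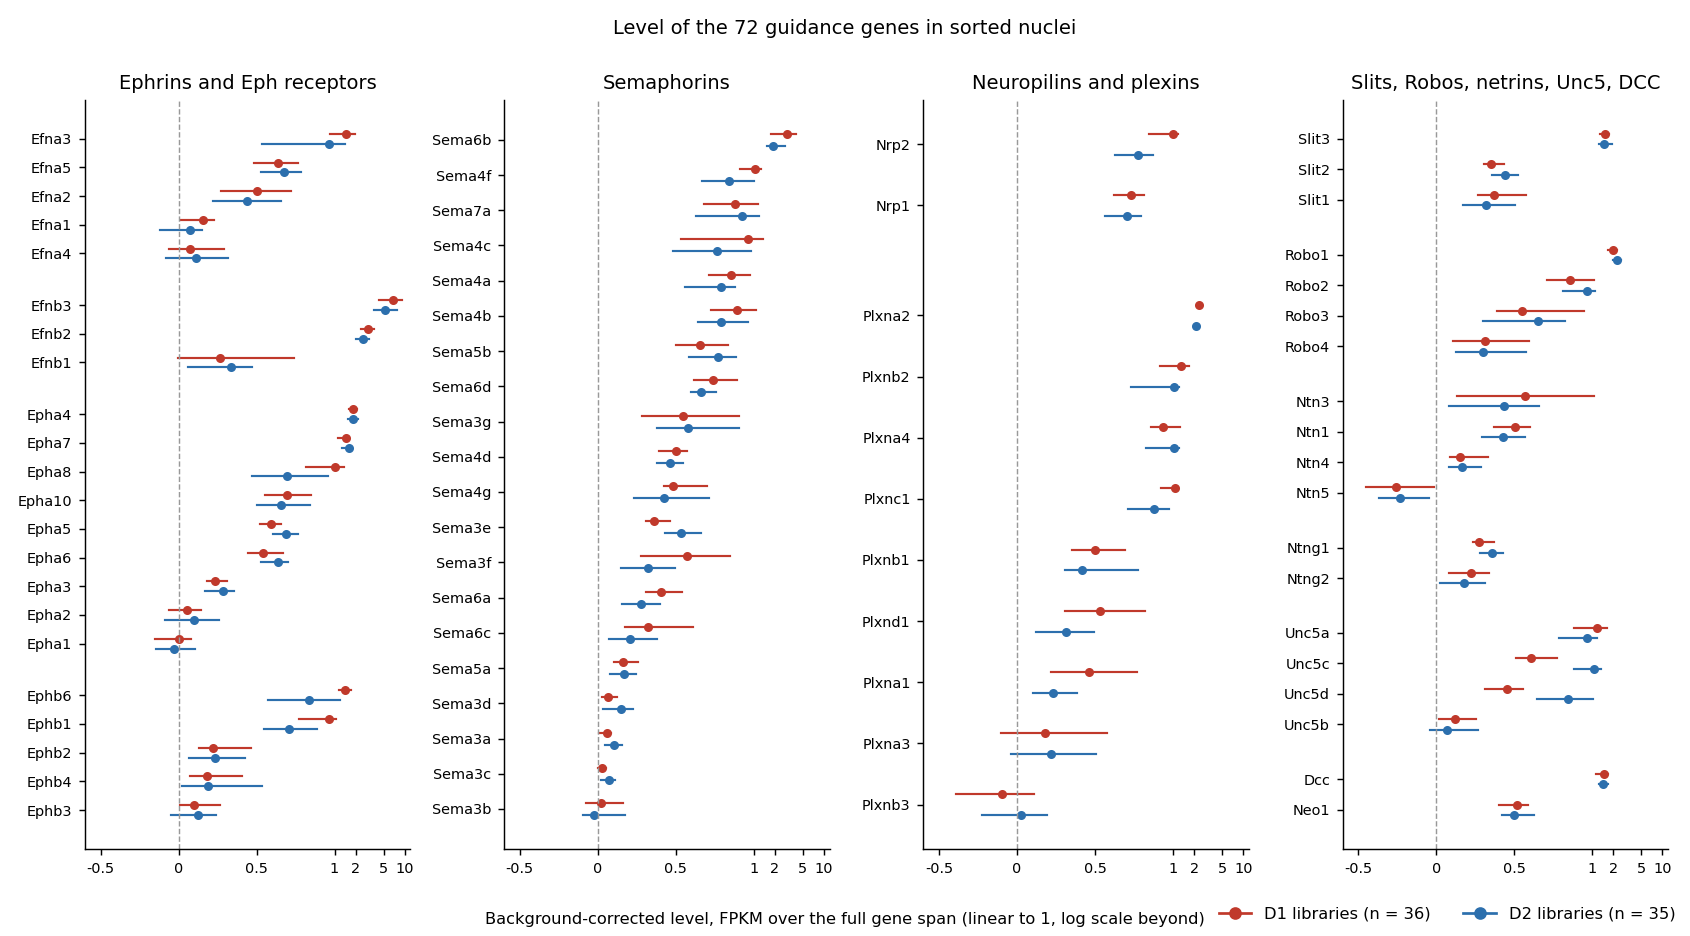
Background-corrected level of each guidance gene (x axis, FPKM over the full gene span, linear to 1 and logarithmic beyond; dots, medians; bars, quartiles over libraries; D1 above D2 for each gene). Efnb3 lies farthest right in both lines, with medians of 6.87 FPKM in D1 and 5.28 FPKM in D2 libraries, and Unc5c and Unc5d have D1 medians (0.608 and 0.453 FPKM) left of their D2 medians (1.04 and 0.846 FPKM).

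Between the lines, the genes that passed the threshold were the netrin receptors Unc5c and Unc5d, and Unc5d is also known to bind FLRT proteins. Over the 4 treatments both were lower in D1 than in D2 nuclei, and none of the other 70 guidance genes passed (edgeR, adjusted over all 39250 genes tested). DESeq2 also called 2 genes, both lower, whereas limma with library weights called 17 higher and 5 lower. In edgeR 0.148% of all genes were called lower and 0.0561% higher, and the shares in DESeq2 and limma are not given here. In bulk nuclei such as these, fewer cells of a type and less RNA per cell cannot be told apart.

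Unc5c spans 369.7 kb on chromosome 3. It ran from 0.380 to 1.21 with a median of 0.694 FPKM in D1 libraries, against 0.549 to 1.50 with a median of 0.918 FPKM in D2 libraries. The lines overlapped, but 2 of 36 D1 libraries lay above the D2 mean (log2 difference -0.59 ± 0.13; edgeR adjusted p = 0.0214). By treatment, corrected Unc5c ran from 0.174 to 0.799 FPKM in D1_CS, against 0.867 to 1.43 FPKM in D2_CS, and from 0.361 to 0.877 FPKM in D1_CC, against 0.959 to 1.65 FPKM in D2_CC. In those treatments each deeper D1 library lay below each deeper D2 library, and Unc5c was the 1 gene of the 72 without overlap. Of all 39250 genes, 0.0051% lay wholly lower in the deeper D1 libraries in CS and 0.13% in CC. In saline mice the ranges touched, with 0.400 to 0.667 FPKM in D1_SS and 0.666 to 1.54 FPKM in D2_SS. After a first cocaine challenge they overlapped widely, with medians of 0.959 FPKM in D1_SC and 1.10 FPKM in D2_SC.

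Unc5d spans 573 kb on chromosome 8. It ran from 0.180 to 0.814 with a median of 0.588 FPKM in D1 libraries, against 0.440 to 1.21 with a median of 0.803 FPKM in D2 libraries, and 2 of 36 D1 libraries lay above the D2 mean (log2 difference -0.68 ± 0.11; edgeR adjusted p = 0.000131). Its corrected medians were lower in D1 in each treatment: 0.364 FPKM in D1_SC and 0.753 FPKM in D2_SC, 0.488 FPKM in D1_CS and 0.614 FPKM in D2_CS, 0.492 FPKM in D1_CC and 1.01 FPKM in D2_CC, and 0.383 FPKM in D1_SS and 0.855 FPKM in D2_SS. The ranges of the lines overlapped in each treatment. Corrected Unc5d was 0.816 FPKM in library 4 of D1_CS, 0.856 FPKM in library 4 of D1_CC and 0.728 FPKM in library 9 of D1_CC, the 3 deeper D1 libraries whose receptor ratio lay on the D2 side. In corrected Unc5c these 3 lay below each deeper D2 library of their treatment. Without the 5 libraries whose receptor ratio lay on the other line's side, the log2 difference was -0.62 ± 0.15 (adjusted p = 0.0430) for Unc5c and -0.72 ± 0.12 (adjusted p = 9.32e-05) for Unc5d (edgeR).

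**Figure D2:**
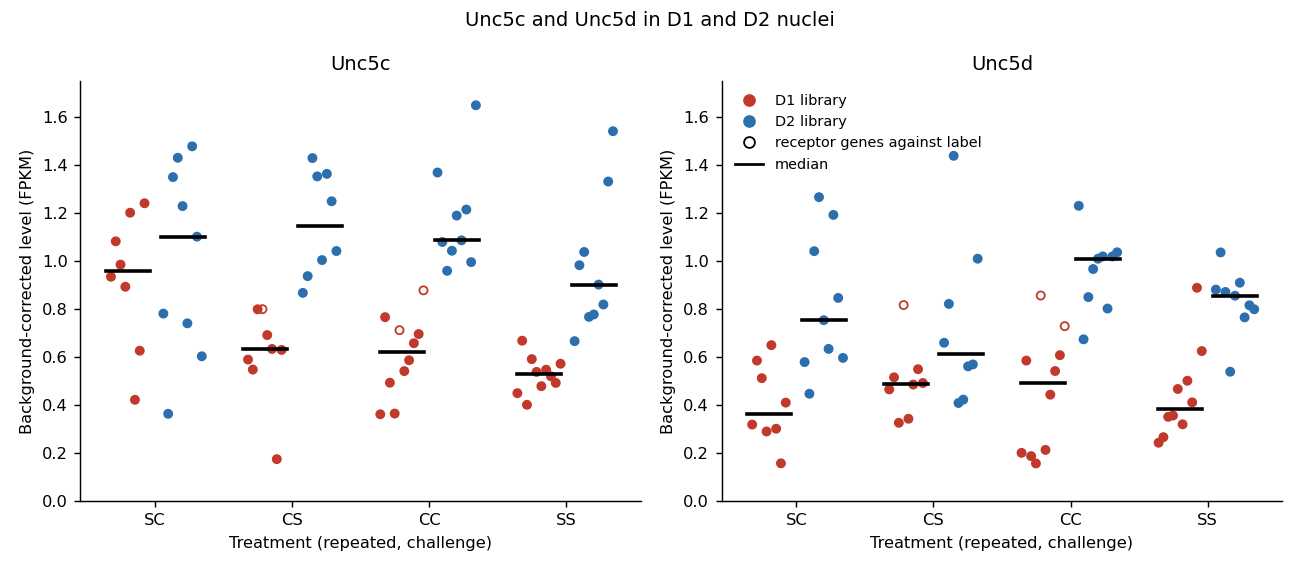
Background-corrected level (y axis, FPKM) of Unc5c and Unc5d in each deeper library, by treatment (x axis; D1 left of D2; line, median; open circles, libraries whose ratio of Drd1 to Drd2 lay on the other line's side). The D1 and D2 points of Unc5c are apart in CS and CC and mixed in SC, and the open D1 circles of Unc5d reach 0.856 FPKM.

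Within single treatments, contrasts added after the data had been seen, neither gene passed. The log2 difference of Unc5c was 0.01 ± 0.27 (adjusted p = 0.999) in SC, -0.86 ± 0.28 (adjusted p = 0.0670) in CS, -0.75 ± 0.26 (adjusted p = 0.186) in CC and -0.78 ± 0.27 (adjusted p = 1.00) in SS (edgeR). That of Unc5d was -0.81 ± 0.23 (adjusted p = 0.0621) in SC, -0.54 ± 0.24 (adjusted p = 0.199) in CS, -0.75 ± 0.22 (adjusted p = 0.181) in CC and -0.62 ± 0.22 (adjusted p = 1.00) in SS (edgeR). The estimate for Unc5d was below 0 in each treatment, and that for Unc5c in each but SC. Other guidance genes were called within SC, where Efna1 and Sema6c were higher in D1 (0.762% of all genes called higher and 0.408% lower). Without library 1 of D1_SC, left out after the data had been seen, neither passed, with log2 differences of 0.30 (edgeR adjusted p = 0.880) for Efna1 and 0.98 (adjusted p = 0.116) for Sema6c. Guidance genes were also called within CS, where Epha4 and Sema4b were lower in D1 (3.55% of all genes called lower and 0.0459% higher). These 2 of 72 are near that share, so the count is not a result about the guidance genes as a set. Sema4b reached 6.14 FPKM in a D2_CS library, beside a D2_CS median of 0.835 FPKM, and a fit without that library was not run. Within CC edgeR called 0 of 72 (0.0153% of all genes higher and 0.0051% lower), with 12 at an unadjusted p under 0.05, and other tools were not run there. Within SS, edgeR called 0 of 72 (0.0127% of all genes in each direction), with 3 at an unadjusted p under 0.05, while DESeq2 called 0 and limma with library weights 1. The next gene by p over the 4 treatments was Efna1, an ephrin-A ligand (log2 difference 0.79 ± 0.25; edgeR adjusted p = 0.261).

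Sema3e and Plxnd1, the pair known from the direct pathway, did not pass. Corrected Plxnd1 ran from -0.114 to 1.64 with a median of 0.532 FPKM in D1 libraries and from -0.466 to 1.22 with a median of 0.317 FPKM in D2 libraries (log2 difference 0.31 ± 0.15; edgeR adjusted p = 0.826). Corrected Sema3e ran from 0.0489 to 0.773 with a median of 0.359 FPKM in D1 libraries and from -0.0800 to 1.04 with a median of 0.535 FPKM in D2 libraries (log2 difference -0.22 ± 0.11; edgeR adjusted p = 0.854). Both ranges overlapped over most of their length. The log2 differences of Robo1 (-0.30), Epha4 (-0.22), Dcc (-0.16), Nrp1 (-0.09), Ntn1 (0.08), Slit1 (0.15) and Nrp2 (0.20) did not pass either.

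The promoter of Unc5c is shown because this gene was called between the lines, in D1_SC against D1_SS and in D1_CC against D1_SC. The RefSeq sequence (GRCm38.p6) holds 250 bases before and 50 after the start in that annotation, at chr3:141465314-141465613 on the plus strand. That start lies 348 bases downstream of the GENCODE M21 start of the gene (141465216). The sequence printed here is thus wholly inside the gene span of GENCODE M21. Capitals mark the 1 match to TGACG, the core of the cyclic AMP response element, read here on the opposite strand.

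Unc5c promoter: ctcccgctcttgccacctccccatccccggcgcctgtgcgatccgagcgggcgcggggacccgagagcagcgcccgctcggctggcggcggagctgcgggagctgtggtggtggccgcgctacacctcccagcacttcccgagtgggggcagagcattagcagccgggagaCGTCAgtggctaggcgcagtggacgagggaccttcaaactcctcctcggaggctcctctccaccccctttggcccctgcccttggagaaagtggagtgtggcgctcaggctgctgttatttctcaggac

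Both strands were searched for the full element TGACGTCA, its core TGACG, which the full element contains, and the AP-1 motif TGANTCA. Promoters were found for 62 of the guidance genes (78 promoters). Of these 78, 1.28% held TGACGTCA, 3.85% TGANTCA and 12.8% TGACG, beside 1.79%, 7.81% and 20.8% of all 32851 promoters of that length. A match is a run of letters, not a binding site.

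A first cocaine challenge, D1_SC against D1_SS, gave more calls in edgeR than any other contrast of treatments. Here 24 of 72 were higher and 0 lower (edgeR), beside 9.7% of all genes called higher and 1.64% lower, and 11.8% of protein-coding genes called higher. The log2 change was above 0 for 60 of 72, with a median of 0.51 beside -0.07 over all genes, and under RLE scaling the medians were 0.30 and -0.25 with 16 called. Among receptors the called genes were 5 of 9 EphA genes, 1 of 5 EphB genes, 4 of 9 plexins, 2 of 2 neuropilins, 2 of 4 Robos, 1 of 4 Unc5 genes, and Dcc but not Neo1. Among ligands they were 5 of 20 semaphorins, 2 of 5 ephrin-As, 1 of 3 Slits, and none of the 3 ephrin-Bs, 4 netrins or 2 netrin-Gs. For none of the 24 did the corrected levels of the groups separate (0.0186% of all genes lay wholly higher in D1_SC), and most of the calls rested on few libraries, as given below.

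Unc5c had the smallest p. It ran from 0.560 to 1.21 with a median of 0.914 FPKM in D1_SC, against 0.580 to 0.724 with a median of 0.631 FPKM in D1_SS (log2 change 1.15 ± 0.20; edgeR adjusted p = 0.00293). Of the D1_SC libraries 7 of 8 lay above the D1_SS mean, and the lowest lay below each D1_SS library. When each of the 37 D1 libraries was left out in turn, Unc5c passed each time, with log2 changes from 0.79 to 1.25.

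Robo1 and its ligand Slit3 were both called. Robo1 ran from 0.930 to 3.40 with a median of 2.05 FPKM in D1_SC, against 1.14 to 1.69 with a median of 1.42 FPKM in D1_SS (log2 change 1.46 ± 0.32; edgeR adjusted p = 0.00455). Slit3 ran from 0.994 to 2.62 with a median of 1.53 FPKM in D1_SC, against 0.911 to 1.38 with a median of 1.07 FPKM in D1_SS (log2 change 1.24 ± 0.28; edgeR adjusted p = 0.00478). Of the D1_SC libraries, 7 of 8 for Robo1 and 6 of 8 for Slit3 lay above the D1_SS mean, and the groups overlapped. Slit1, another Slit, did not pass (0.27 ± 0.21, adjusted p = 0.372, edgeR).

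Among the semaphorin receptors, Plxna2 ran from 1.43 to 2.87 with a median of 2.16 FPKM in D1_SC, against 1.27 to 1.80 with a median of 1.55 FPKM in D1_SS (log2 change 1.29 ± 0.31; edgeR adjusted p = 0.00639). Plxna3 (1.61 ± 0.36, adjusted p = 0.00487) and Plxnb3 (1.28 ± 0.28, adjusted p = 0.00406) were called higher by edgeR, but both were low, with corrected medians of 0.617 FPKM in D1_SC and 0.250 FPKM in D1_SS for Plxna3, and of 0.317 FPKM in D1_SC and -0.108 FPKM in D1_SS for Plxnb3. The neuropilins, co-receptors of plexins, were called as well: Nrp2 (0.72 ± 0.20, adjusted p = 0.0177) and Nrp1 (0.67 ± 0.20, adjusted p = 0.0241). The ligand Sema3e was called (0.70 ± 0.18, adjusted p = 0.00945), with medians of 0.519 FPKM in D1_SC and 0.501 FPKM in D1_SS, while its receptor Plxnd1 did not pass (0.46 ± 0.31, adjusted p = 0.286).

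Among the other receptors, Epha10 (0.74 ± 0.19, adjusted p = 0.0110, edgeR), an Eph receptor without kinase activity, had medians of 0.857 FPKM in D1_SC and 0.686 FPKM in D1_SS. Epha4 passed narrowly (0.83 ± 0.28, adjusted p = 0.0468, edgeR) and was called in 11 of 37 leave-outs. The netrin receptor Dcc was called (0.89 ± 0.25, adjusted p = 0.0194, edgeR), with medians of 1.43 FPKM in D1_SC and 1.21 FPKM in D1_SS, whereas the ligand Ntn1 was not (0.50 ± 0.21, adjusted p = 0.108).

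For the ephrin-A ligands Efna1 and Efna5 the values depended on single libraries. Efna1 had the largest fold of the named genes (log2 change 2.30 ± 0.57; edgeR adjusted p = 0.00824), with a corrected level of 16.6 FPKM in library 1 of D1_SC and at most 0.774 FPKM in the other 7, against 0.439 FPKM or less in D1_SS. Without library 1 of D1_SC its log2 change was -0.07 (adjusted p = 0.884). Efna5 (log2 change 0.89 ± 0.21; edgeR adjusted p = 0.00644) had the lower median in D1_SC, 0.609 FPKM against 0.652 FPKM in D1_SS. Without library 5 of D1_SC, which held 651445 counts, its log2 change was 0.31 (adjusted p = 0.107), but it was called in 31 of 37 leave-outs and, with a log2 change of 0.46 (edgeR adjusted p = 0.0490), without all failing libraries. Of the 24 called genes, 20 had the higher median FPKM in D1_SC, and the exceptions were Efna1, Efna5, Epha5 and Robo2. In corrected levels 22 had the higher median in D1_SC, and the exceptions were Efna1 and Robo2.

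**Figure D3:**
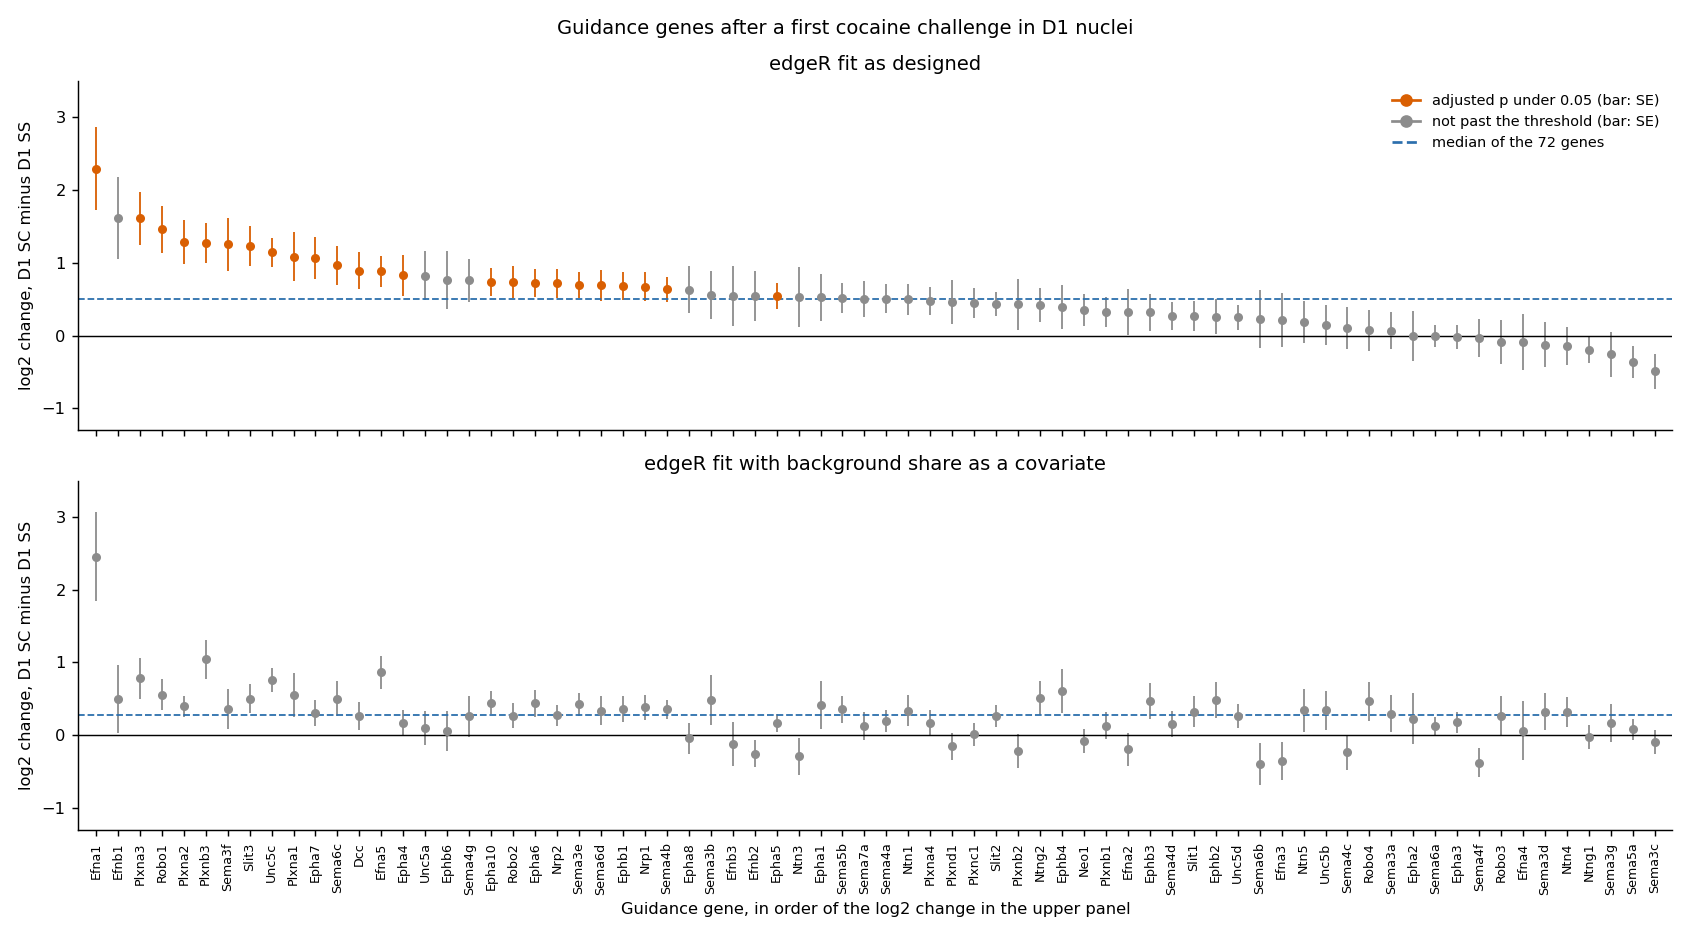
log2 change of the 72 guidance genes in D1_SC against D1_SS (y axis; bars, SE) in the edgeR fit and with the background share of each library as a covariate, genes in the same order on the x axis. In the first fit 24 genes are coloured as called and the dashed median is at 0.51, and in the second none is coloured and the median is at 0.27.

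The count changed with how the background and single libraries were handled. With the background share as a covariate edgeR called 0 of 72, with 15 at an unadjusted p under 0.05 and 58 above 0, and the fits by DESeq2 and limma, without the covariate, called 23 and 14. With the background subtracted from the counts, 3 were called (Plxna2, Plxnb3 and Unc5c). Without libraries 2, 4 and 9 of D1_SC, chosen after the data had been seen, 2 were called (Efna1 and Plxnb3). Leaving out single libraries gave 3 calls without library 2 of D1_SC, 4 without library 4, 6 without library 9 and 8 without library 5. It gave 7 without library 5 of D1_CS or library 3 of D1_SS, and 15 without library 3 of D1_CS. Over all genes, the calls were 459, 511, 777 and 1563 without libraries 2, 4, 9 and 5 of D1_SC. They were 1509 without library 5 of D1_CS, 1505 without library 3 of D1_SS and 4107 without library 3 of D1_CS. With all D1 libraries, 3659 genes were higher and 618 lower. Without the 21 libraries (of both lines) that failed a rule on depth, genes detected, receptor ratio or correlation with their line, 11 were called.

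The low-background D1 libraries were of more than 1 kind. Corrected Robo1 was 3.53, 3.35 and 3.56 FPKM in libraries 2, 4 and 9 of D1_SC and 3.47 FPKM in library 3 of D1_CS (background 10.1%), but 1.13 and 0.972 FPKM in libraries 1 and 3 of D1_CC (background 16.5% and 4.03%). Corrected Efnb3 ran the other way, at 3.03, 2.72 and 3.02 FPKM in those D1_SC libraries and 2.23 FPKM in library 3 of D1_CS, but 14.6 and 14.8 FPKM in libraries 1 and 3 of D1_CC. The long receptor gene was thus high in the first set and the short ephrin gene in the second. Drd1 was at 53.4, 70.2 and 61.6 CPM in those D1_SC libraries, near their Drd2 at 49.5, 83.0 and 84.0 CPM, and at 366 and 478 CPM in the D1_CC libraries. Genes over 100 kb took 64.1%, 63.2% and 61.7% of counts in those D1_SC libraries, and 38.6% and 34.1% in the D1_CC libraries.

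**Figure D4:**
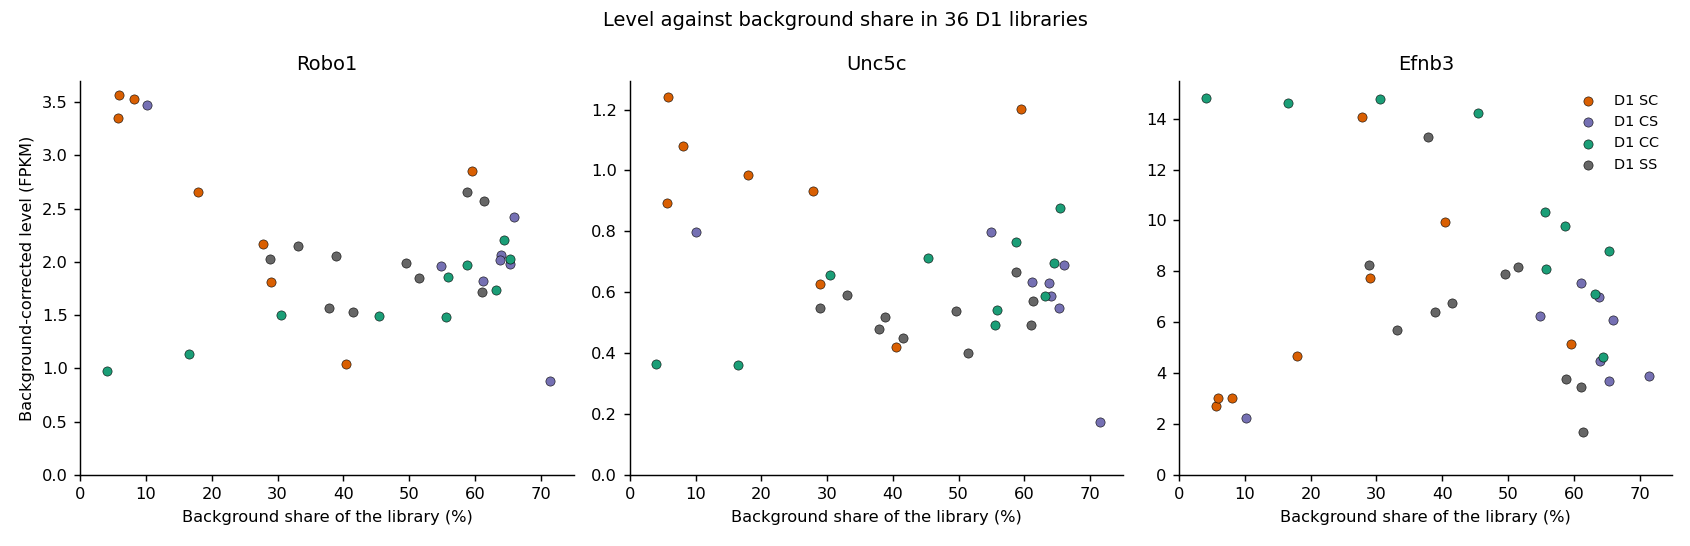
Background-corrected level (y axis, FPKM) of Robo1, Unc5c and Efnb3 against the background share of the library (x axis, percent) in 36 D1 libraries, coloured by treatment. At the lowest background shares the D1_SC points are high for Robo1 (3.35 to 3.56 FPKM) and low for Efnb3 (2.72 to 3.03 FPKM), and the D1_CC points are the reverse.

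In D1_SC against D1_SS more long than short guidance genes were called, and some markers of cell types were higher. Of 34 guidance genes over 100 kb 16 were called and of 38 shorter ones 8, although the median log2 change was 0.51 in both. Of 6 oligodendrocyte markers 5 were higher in D1_SC, with summed levels of 98.3 to 821 CPM in D1_SC and 141 to 251 CPM in D1_SS. Of 8 medium spiny neuron markers 6 were higher, with 2731 to 7463 CPM in D1_SC and 2507 to 4391 CPM in D1_SS. Of 6 astrocyte markers 1 was higher (104 to 733 CPM in D1_SC and 197 to 381 CPM in D1_SS), and of 7 D1 neuron markers 0 (262 to 923 CPM in D1_SC and 215 to 962 CPM in D1_SS). Of the other lists, 1 of 6 tested D2 neuron, 1 of 4 microglia and 1 of 4 cortical glutamatergic neuron markers were higher, and none of 3 oligodendrocyte precursor, 3 endothelial or 6 interneuron markers. No marker of these lists was at 0 in all libraries. The part of gene length and of these cell types in the result was not tested.

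When both groups had the cocaine challenge and differed in history, in D1_CC against D1_SC, 16 guidance genes were lower and 0 higher (edgeR), beside 7.86% of all genes called lower and 2.62% higher. It shares the D1_SC libraries with the contrast above, so its values stand beside those and are not independent of them. The median log2 change of the 72 was -0.37, beside 0.19 over all genes. Under RLE scaling the medians were -0.24 and 0.31, 17 were lower, and the calls over all genes split into 1449 higher and 2605 lower, against 990 higher and 2965 lower with TMM.

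Unc5c ran from 0.380 to 0.803 with a median of 0.694 FPKM in D1_CC, against 0.560 to 1.21 with a median of 0.914 FPKM in D1_SC (log2 change -1.0 ± 0.20; edgeR adjusted p = 0.00216). Robo1 ran from 0.963 to 1.28 with a median of 1.18 FPKM in D1_CC, against 0.930 to 3.40 with a median of 2.05 FPKM in D1_SC (log2 change -1.59 ± 0.32; edgeR adjusted p = 0.00240). Dcc ran from 0.660 to 1.15 with a median of 0.928 FPKM in D1_CC, against 0.792 to 2.10 with a median of 1.43 FPKM in D1_SC (log2 change -1.14 ± 0.26; edgeR adjusted p = 0.00428). The D1_CC libraries above the D1_SC mean were 0 of 10 for Unc5c, 0 of 10 for Robo1 and 0 of 10 for Dcc, and the groups still overlapped because some D1_SC libraries were low. Also lower were Slit3 (-1.15 ± 0.27, adjusted p = 0.00670, edgeR) and Sema6d (-0.82 ± 0.22, adjusted p = 0.0124), a transmembrane semaphorin. So were the Eph receptors Epha10 (-0.85 ± 0.19, adjusted p = 0.00459, edgeR) and Epha6 (-0.85 ± 0.20, adjusted p = 0.00498), the plexin Plxnb3 (-1.23 ± 0.28, adjusted p = 0.00429), and the ephrins Efna5 (-0.91 ± 0.21, adjusted p = 0.00519) and Efna1 (-2.40 ± 0.57, adjusted p = 0.00656). For Efna1 and Efna5 the median FPKM was not lower in D1_CC, but in corrected levels each of the 16 called genes had the lower median in D1_CC. Without library 1 of D1_SC the log2 change of Efna1 was -0.03 (edgeR adjusted p = 0.948), and without library 5 of D1_SC that of Efna5 was -0.35 (adjusted p = 0.0790). Nrp2 (-0.58), Nrp1 (-0.53), Ntn1 (-0.52), Sema3e (-0.38), Slit1 (-0.36), Epha4 (-0.23) and Plxnd1 (0.17) did not pass, each value a log2 change.

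Again the count rested on few libraries. It was 2 without libraries 2, 4 and 9 of D1_SC (Efna1 and Plxnb3), 4 without library 2 alone, 5 without library 4 and 8 without library 9. It was 9 without library 5 of D1_CS or library 3 of D1_SS, and 25 without library 6 of D1_SC. Over all genes, the calls were 683, 831 and 1390 without libraries 2, 4 and 9 of D1_SC. They were 2013 without library 5 of D1_CS, 2075 without library 3 of D1_SS and 8742 without library 6 of D1_SC. With all D1 libraries, 990 genes were higher and 2965 lower. With the background share as a covariate 11 were lower and 6 higher, and with the background subtracted 8 were lower (shares of all genes not given here). Of the marker lists, 2 of 6 oligodendrocyte markers were lower in D1_CC (160 to 369 CPM in D1_CC and 98.3 to 821 CPM in D1_SC). Of 8 medium spiny neuron markers 3 were lower and 1 higher, and of 6 interneuron markers 1 was lower and 3 higher. Lower too were 2 of 4 cortical glutamatergic neuron, 1 of 6 astrocyte and 1 of 4 microglia markers. Of the 6 tested D2 neuron markers 3 were higher. None of 7 D1 neuron, 3 oligodendrocyte precursor or 3 endothelial markers was called. The part of any of these lists in the result was not tested.

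In the contrast of cocaine with saline challenge after cocaine history, D1_CC against D1_CS, 3 of 72 were higher and 0 lower (edgeR). They were the ephrin ligands Efnb3 and Efna3 and the semaphorin Sema6b. Of all genes 8.28% were called higher and 0.0292% lower, and 2515 of 20928 protein-coding genes were higher. The guidance genes were thus called higher less often than all genes or protein-coding genes, so the count is not a result about the guidance genes as a set. The spans of the 3 called genes were 6.11 kb for Efnb3, 9.07 kb for Efna3 and 17.3 kb for Sema6b. Of the 34 guidance genes over 100 kb, 0 were called. The median log2 change of the 72 was -0.02 beside -0.09 over all genes, and under RLE scaling -0.19 and -0.25.

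Efnb3 ran from 2.14 to 14.3 with a median of 4.75 FPKM in D1_CC, against 1.66 to 3.40 with a median of 2.33 FPKM in D1_CS (log2 change 1.91 ± 0.44; edgeR adjusted p = 0.0170). Sema6b ran from 1.23 to 7.12 with a median of 2.22 FPKM in D1_CC, against 0.942 to 1.76 with a median of 1.49 FPKM in D1_CS (log2 change 1.59 ± 0.43; edgeR adjusted p = 0.0199). Efna3 ran from 0.753 to 3.46 with a median of 1.25 FPKM in D1_CC, against 0.587 to 1.09 with a median of 0.969 FPKM in D1_CS (log2 change 1.34 ± 0.39; edgeR adjusted p = 0.0280). For each gene 9 of 10 D1_CC libraries lay above the D1_CS mean, and the lowest D1_CC library lay within the D1_CS range. Efnb2, the other abundant ephrin-B, had corrected medians of 4.05 FPKM in D1_CC and 2.80 FPKM in D1_CS and missed the threshold. Epha4 (0.77 ± 0.29, adjusted p = 0.0983, edgeR) and Plxnd1 (0.78 ± 0.32, adjusted p = 0.138) did not pass. Nor did Sema3e (0.22), Nrp1 (0.04), Nrp2 (-0.01), Ntn1 (-0.04), Dcc (-0.10), Robo1 (-0.27) and Slit1 (-0.16), given as log2 changes.

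**Figure D5:**
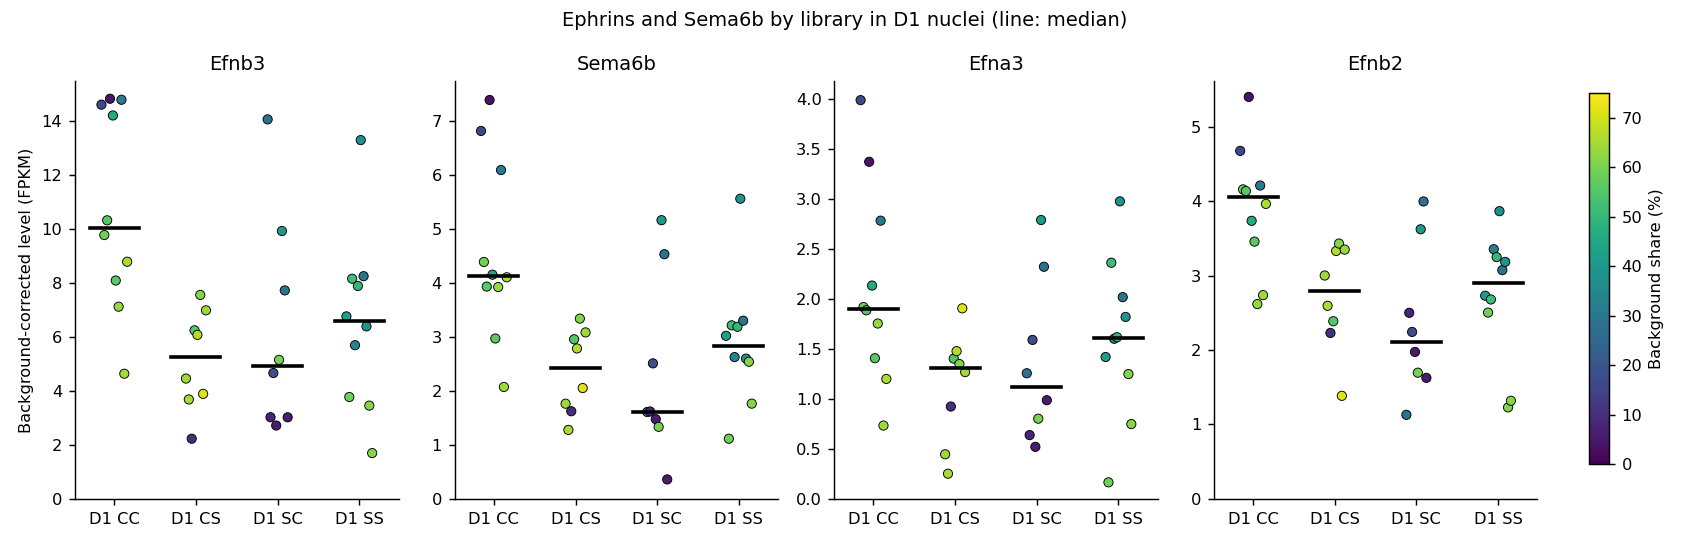
Background-corrected level (y axis, FPKM) of Efnb3, Sema6b, Efna3 and Efnb2 in each deeper D1 library, by treatment (x axis; line, median), coloured by the background share of the library. The Efnb3 medians are 10.0 FPKM in D1_CC, 5.27 FPKM in D1_CS, 4.91 FPKM in D1_SC and 6.58 FPKM in D1_SS, with wide overlap.

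The promoters of Sema6b and Efna3 are printed because these genes were called together. They are RefSeq sequences (GRCm38.p6) on the minus strand at chr17:56140294-56140593 and chr3:89322890-89323189. Neither holds any of the 3 motifs, so no letter is in capitals.

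Sema6b promoter: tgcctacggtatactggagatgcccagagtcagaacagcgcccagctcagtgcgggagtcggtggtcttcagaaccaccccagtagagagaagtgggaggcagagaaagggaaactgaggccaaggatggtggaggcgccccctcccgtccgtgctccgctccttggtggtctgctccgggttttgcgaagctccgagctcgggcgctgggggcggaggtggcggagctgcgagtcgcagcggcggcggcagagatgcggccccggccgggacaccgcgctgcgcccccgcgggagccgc
Efna3 promoter: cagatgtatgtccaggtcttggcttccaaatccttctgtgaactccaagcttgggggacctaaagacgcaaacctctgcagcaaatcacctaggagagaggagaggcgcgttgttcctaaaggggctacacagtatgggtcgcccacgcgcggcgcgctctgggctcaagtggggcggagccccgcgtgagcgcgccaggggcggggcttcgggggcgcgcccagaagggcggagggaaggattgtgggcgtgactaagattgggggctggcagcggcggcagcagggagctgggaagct

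These calls did not pass when the background was modelled. With the background share as a covariate edgeR called 0 of 72, with 4 at an unadjusted p under 0.05, and Efnb3 had a log2 change of 0.97 ± 0.32 (adjusted p = 0.451). Nor was any called with the background subtracted (7 at an unadjusted p under 0.05) or without the 21 libraries that failed those rules (17 at an unadjusted p under 0.05). DESeq2 called 3 and RLE scaling 1 (Efnb3). The count was 0 without library 1 or library 3 of D1_CC, 1 without library 2 of D1_CS, 5 without library 2 or library 9 of D1_SC, 6 without library 5 of D1_SC and 10 without library 3 of D1_CS. Over all genes, the calls were 0 without library 1 or library 3 of D1_CC and 1025 without library 2 of D1_CS. They were 3894, 4209 and 4710 without libraries 2, 9 and 5 of D1_SC, and 5700 without library 3 of D1_CS. With all D1 libraries, 3123 genes were higher and 11 lower. Of 7 D1 neuron markers 4 were higher in D1_CC (249 to 1788 CPM in D1_CC and 289 to 503 CPM in D1_CS), as were 3 of the 6 tested D2 neuron markers (194 to 2310 CPM in D1_CC and 134 to 1006 CPM in D1_CS). Higher too were 2 of 8 medium spiny neuron, 1 of 6 oligodendrocyte and 1 of 6 interneuron markers, and no marker of the other lists was called. The part of these markers in the result was not tested.

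Whether history changed the challenge response was tested as (D1_CC minus D1_CS) minus (D1_SC minus D1_SS). EdgeR called 0 of 72 (0.0% of all genes), with 26 at an unadjusted p under 0.05 and 56 below 0. The smallest p belonged to Unc5c (-1.16 ± 0.28, adjusted p = 0.0527, edgeR), Robo1 (-1.74 ± 0.46, adjusted p = 0.0527) and Slit3 (-1.44 ± 0.39, adjusted p = 0.0532), each just short of the threshold. DESeq2 called 14, RLE scaling 4 and limma with library weights 0 (shares of all genes not given here).

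Against saline throughout, no guidance gene was called by edgeR or DESeq2 in D1 nuclei of mice with a cocaine history. In D1_CS against D1_SS edgeR called 0 of 72 (0.0% of all genes) with 0 at an unadjusted p under 0.05. There DESeq2 called 0, and limma with library weights 22 (share of all genes not given here). The smallest p belonged to Efnb3 (-0.81 ± 0.43), Efna3 (-0.56 ± 0.39) and Sema6b (-0.53 ± 0.42), given as log2 changes with SE. Their corrected medians were 5.27 FPKM in D1_CS and 6.58 FPKM in D1_SS for Efnb3, 1.31 FPKM in D1_CS and 1.61 FPKM in D1_SS for Efna3, and 2.42 FPKM in D1_CS and 2.82 FPKM in D1_SS for Sema6b. In D1_CC against D1_SS edgeR called 0 of 72 (0.0% of all genes) with 7 at an unadjusted p under 0.05, and DESeq2 and limma called 0. There Efnb3 (1.10 ± 0.40, adjusted p = 0.695, edgeR), Sema6b (1.07 ± 0.39, adjusted p = 0.695) and Efnb2 (0.80 ± 0.33, adjusted p = 0.695) had the smallest p.

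In D2 nuclei no guidance gene was called by edgeR or DESeq2 between treatments. In D2_SC against D2_SS (0.0% of all genes called), 7 had an unadjusted p under 0.05, 60 of 72 had a log2 change above 0, and the median was 0.29 beside -0.03 over all genes. The smallest p belonged to the receptors Ephb1 (0.44 ± 0.18, adjusted p = 0.923, edgeR) and Unc5a (0.61 ± 0.25, adjusted p = 0.939) and the semaphorin Sema4g (0.87 ± 0.35, adjusted p = 0.928). Robo1 had medians of 1.60 FPKM in D2_SC and 1.36 FPKM in D2_SS. The change after a first challenge in D1 minus that in D2, tested directly, called 0 of 72 in edgeR (0.028% of all genes higher) and in DESeq2, with 7 at an unadjusted p under 0.05 and Efna1 first (2.39 ± 0.69, adjusted p = 0.307, edgeR).

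In D2_CS against D2_SS edgeR called 0 (0.0859% of all genes higher) with 8 at an unadjusted p under 0.05, led by Sema4b, a transmembrane semaphorin (1.10 ± 0.42, adjusted p = 0.543). Its corrected level reached 9.12 FPKM in a D2_CS library, and the medians were 0.897 FPKM in D2_CS and 0.698 FPKM in D2_SS. In D2_CC against D2_SS edgeR called 0 (0.0%) with 1 at an unadjusted p under 0.05, Ntn1 (0.47 ± 0.19, adjusted p = 1.00). In D2_CC against D2_CS it called 0 (0.252% of all genes lower) with 3, in D2_CC against D2_SC 0 (0.0%) with 1, and in the D2 interaction 0 (0.0%) with 3. Limma with library weights called 13 in D2_SC, 8 in D2_CS and 19 in D2_CC against D2_SS, and 0 in the other D2 contrasts (shares of all genes not given here). The differences between the lines in the CS and CC changes from SS gave 0 calls in edgeR (0.0892% of all genes lower and 0.0%) and in DESeq2, with 5 (CS) and 2 (CC) at an unadjusted p under 0.05. Limma with library weights called 0 in these and in the SC difference.

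Genes that act with these receptors are given by 2 lists, beside the share of all genes. Of 50 genes downstream of guidance receptors, 29 were higher and 0 lower in D1_SC than in D1_SS, with a median log2 change of 0.68. There 9.7% of all genes and 11.8% of protein-coding genes were called higher. The smallest p belonged to Dock4 (1.38 ± 0.28, adjusted p = 0.00322, edgeR), an activator of Rac, the kinase gene Abl2 (1.52 ± 0.34, adjusted p = 0.00507) and Srgap2 (0.73 ± 0.17, adjusted p = 0.00553), whose product binds Robo receptors. Of 21 partners and other cues, 8 were higher and 0 lower, led by Lrrc4c (1.28 ± 0.27, adjusted p = 0.00398, edgeR), the ligand of netrin-G1. In D1_CC against D1_CS 6 of the 50 downstream genes were higher and 0 lower, near the 2515 of 20928 protein-coding genes called higher there, so the count is not a result about the list. The smallest p belonged to Cfl1 (2.62 ± 0.58, adjusted p = 0.0170, edgeR), which encodes cofilin, an actin-severing protein, and Rac1 (1.55 ± 0.40, adjusted p = 0.0172). Of the 21 partners 3 were higher, also near that share, led by Flrt1 (1.18 ± 0.34, adjusted p = 0.0262, edgeR). In D1_CC against D1_SC 19 of 50 downstream genes and 5 of 21 partners were lower and 0 higher, where 7.86% of all genes were called lower. Neither list held a called gene between the lines over the 4 treatments or in D2 nuclei. Both lists were chosen with earlier results of these data known, and their counts come from the main edgeR fit alone. Without library 2 of D1_SC the calls over all genes were 459 in D1_SC against D1_SS and 683 in D1_CC against D1_SC. List counts with the background modelled or without single libraries are not given here.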

How the data were processed

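Counts per gene were deposited by the authors for 75 libraries made with SMARTer Stranded Total RNA-seq v3 Pico kits, per the labels' protocols. The submitters' processing notes name mm10, featureCounts and DESeq2 without versions, while aligner, annotation and strand setting are not given in the sources used here. In the FPKM table deposited by the authors, each value equals the count per kilobase of full gene span, introns included, per 1000000 counts, so nuclear pre-mRNA and any unspliced background raise long genes.

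Counts were tested with edgeR 4.0.16 (R 4.3.3) quasi-likelihood fits with TMM scaling, filterByExpr by group and Benjamini-Hochberg adjustment over all genes at 0.05: 37721 genes in 37 D1 libraries, 36090 in 38 D2 libraries and 39250 in all 75. DESeq2 1.42.0, limma 3.58.1 with library weights, RLE scaling, no filter, the replicate number as a block, and background or library exclusions were alternatives. The fits were tested on simulated data. Levels used Python 3.11.15, pandas 2.3.3 and SciPy 1.17.1. Background was the count per kilobase of 1738 Olfr, Vmn1r and Vmn2r genes. The corrected level is FPKM minus this background, divided by 1 minus the background share. Libraries at or under 1000000 counts stayed in the fits and out of the levels. Libraries failed quality with a total under the line median divided by 3, with detected genes or Spearman correlation to their line over 4 scaled median absolute deviations low, or by receptor ratio.

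Fold changes are given for up to 10 called genes of smallest p in each direction, for the 3 of smallest p where fewer than 3 passed, and for Plxnd1, Sema3e, Dcc, Ntn1, Nrp1, Nrp2, Epha4, Robo1 and Slit1. The members and lists were chosen with earlier results of these data known.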

Additional observations from a re-analysis of the deposited data

Results flagged for a closer look

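Dixon's test was run on 68 sets of 8 to 10 libraries, each set 1 of 19 measures within a group. In 10 sets a library lay far from the others. Chance alone gives this in about 1 in 20 sets, but the sets share libraries and are not independent. The 10 therefore cannot be read as an excess over that rate. The background share was 10.1% in library 3 of D1_CS, where the next lowest was 54.9%, and 5.29% in library 9 of D2_SS, where the next was 34.7%. In library 3 of D1_CS the guidance genes together took 1.17% of counts, and the next highest D1_CS library had 1.02%.

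Among single genes, given as corrected levels, Efna1 reached 16.6 FPKM in library 1 of D1_SC beside 0.774 FPKM in the next, and Plxna3 2.23 FPKM in the same library beside 0.873 FPKM. Efna1 was 0.652 FPKM in library 6 of D1_CC beside 0.182 FPKM. Unc5d was 0.816 FPKM in library 4 of D1_CS beside 0.548 FPKM, and that library had its Drd1 to Drd2 ratio on the D2 side. Unc5c was lowest in library 7 of D1_CS, with 0.174 FPKM beside 0.547 FPKM. Slit3 was 2.37 FPKM in library 9 of D1_SS beside 1.71 FPKM, and Epha10 2.10 FPKM in library 8 of D1_SS beside 1.09 FPKM. No cause of these values was tested.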

How the results depend on the processing

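Limma with library weights gave other counts of called guidance genes than edgeR: 22 between the lines, 1 between the lines in SS, 14 in D1_SC against D1_SS, 22 in D1_CS against D1_SS, 8 in D1_CC against D1_CS, 40 in D1_CC against D1_SC, 13 in D2_SC, 8 in D2_CS and 19 in D2_CC against D2_SS. In D1_SC against D1_SS (24 in edgeR) the count was 11 with the replicate block, 11 without failing libraries, 0 with the background covariate, 3 with background subtracted and 2 without the 3 lowest-background D1_SC libraries. In D1_CC against D1_SC (16) it was 10 with the block, 8 with background subtracted and 2 without those 3 libraries. In D1_CC against D1_CS (3) it was 1 with RLE scaling, 5 without those 3 libraries, and 0 with the covariate, with background subtracted or without failing libraries. The D1 interaction (0) gave 14 in DESeq2, 4 with RLE scaling and 4 with the covariate. Leaving out single libraries gave 3 to 33, 4 to 25 and 0 to 10 calls in D1_SC against D1_SS, D1_CC against D1_SC and D1_CC against D1_CS. In the leave-outs at those ends, the calls over all genes were 459 and 10348, 683 and 8742, and 0 and 5700. Except for RLE scaling in D1_CC against D1_SC and the leave-outs, calls over all genes are given only for the main edgeR fit. The other counts here therefore do not show whether the guidance genes were called more often than all genes. The cause of the shifts in these counts was not tested. The log2 difference of Unc5c between the lines was 0.0072 within SC, and with limma the log2 change of Efna1 was -0.29 in D1_SC against D1_SS and 0.19 in D1_CC against D1_SC.

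Over the deeper libraries the background share was 10.8 percentage points higher in D1_CS than in D1_SS (exact permutation test, two-sided adjusted p = 0.535). Without failing libraries, which left 5 of D1_CS, it was 17.8 points higher (exact permutation test, two-sided adjusted p = 0.0133). The difference of D1_CC minus D1_SS was -0.284 points over the deeper libraries and 3.01 points without failing ones. That of D1_SS minus D2_SS was 2.05 and -2.82 points. Of 210 alternatives for 25 single-gene results (the calls of Efna1 and Sema6c within SC not counted), 151 kept direction and side of the threshold, 56 no longer passed and 3 changed sign. The median correlation between the deviations of same-numbered libraries was -0.02 over 52 pairs in D1 and 0.06 over 55 pairs in D2. Single pairs ran from -0.67 to 0.76 in D1 and from -0.72 to 0.65 in D2, with 19 and 20 over 0.1. In D1 6 of 37 and in D2 3 of 38 libraries correlated best with their own number. A weaker pairing by number was not tested. Low counts limit genes near background, such as Plxnb3, and libraries under 1000000 counts.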
